A study of Mus musculus with 4 samples.

Results

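The interferon regulatory factors (IRFs) are a family of transcription factors, and the 8 genes Irf1, Irf2, Irf3, Irf4, Irf5, Irf7, Irf8 and Irf9 were read here in mouse macrophages that carry the long noncoding RNA Dnm3os. They were chosen by name, and each was measured through its RefSeq transcript with the highest mean count. All 8 were found among the 24422 named genes of the series, and all 8 passed the filter on low counts.

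IRF proteins share a DNA-binding domain that recognises GAAA repeats, and they differ in what switches them on. IRF3 and IRF7 are phosphorylated downstream of nucleic acid sensors and drive interferon genes, IRF5 acts downstream of Toll-like receptors on inflammatory cytokine genes, and IRF9 is part of ISGF3, the complex that carries the type I interferon signal. IRF1 activates and IRF2 often represses overlapping promoters, while IRF4 and IRF8 bind DNA weakly alone and act with partners such as PU.1 in myeloid and lymphoid cells. IRF8 is a lineage factor of monocytes and macrophages.

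The cells were RAW 264.7, a mouse macrophage line, used between passages 3 and 6 and grown at 5.5 mmol/L glucose. In 2 libraries the cells stably carried the empty pcDNA 3.1(+) plasmid, and in 2 they stably carried the plasmid with Dnm3os. The only comparison is between these groups. It is not stated if replicate libraries came from separate cultures, or if a stable line is 1 clone or a pool, so p-values measure only the spread between these libraries, which may be technical.

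Counts summed over 1 transcript per gene that passed the filter, the depth behind every level here, ranged from 29408934 to 39760190 per library. Dnm3os itself had 0 and 0 counts in the empty vector libraries and 208 and 260 in the Dnm3os libraries. With 3 counts taken as the floor for the pooled empty vector group, that is at least 184-fold higher. Of 10 macrophage markers, 9 could be tested; Mertk had at most 1 count in any library. Their summed level was 9862 to 10018 CPM with the empty vector and 10766 to 11235 CPM with Dnm3os. CPM is the count scaled to the TMM-adjusted library size, as in edgeR. Most of the sum was Lyz2, at 7089 and 6940 CPM, then 8038 and 7578 CPM. By edgeR, 4 markers were higher: Itgam (log2 fold change 1.01), Fcgr1 (0.75), Csf1r (0.27) and Lyz2 (0.15). Another 2 were lower, Adgre1 (-0.30) and Cd68 (-0.11). Summed markers of other cell types were far below the macrophage sum. Even so, Sdc1, at 23.8 and 22.2 CPM with the empty vector, was above Irf8 in those libraries. Of 6 T cell markers, Cd3e, Cd3g and Cd2 were at 0 in all libraries and the sum was 6.54 to 7.05 and then 5.40 to 5.51 CPM, nearly all of it Lck. Of 7 B and plasma cell markers, Cd79b and Ms4a1 were among those at 0, and the sum was 22.6 to 23.9 and then 11.9 to 12.1 CPM, nearly all of it Sdc1, which fell. Of 6 dendritic cell markers Flt3 was at 0, and the sum was 13.7 to 14.1 and then 18.7 to 19.1 CPM, with Itgax higher. Sums of 6 fibroblast and 6 epithelial markers were at most 0.0752 CPM in any library. In bulk RNA, fewer cells of a type and less RNA per cell cannot be told apart, and the part of Itgax and Sdc1, or of any cells that carry them, in the results below was not tested.

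Sequence upstream of the start sites was read for all 8 genes from RefSeq (GRCm38.p6), as 11 windows of 250 bases that end at an annotated start. Each window was searched on both strands for TTCNNNGAA (the GAS element of STAT dimers), GAAA followed after any 2 bases by GAAA (the core of the interferon-stimulated response element) and GGAA followed after any 2 bases by GAAA (an ETS and IRF composite). These letters occur in 7.02%, 2.98% and 2.30% of the 32851 windows of that length in the table. Of the 11 windows, 3 held a match, in Irf1, Irf2 and Irf8. They are shown with that of Irf7, the most abundant family member, and capitals mark the matches. The window of Irf8 is at chr8:120736108-120736357 on the plus strand, that of Irf1 at chr11:53769764-53770013 on the plus strand, that of Irf2 at chr8:46739495-46739744 on the plus strand and that of Irf7 at chr7:141266425-141266674 on the minus strand.
Irf8: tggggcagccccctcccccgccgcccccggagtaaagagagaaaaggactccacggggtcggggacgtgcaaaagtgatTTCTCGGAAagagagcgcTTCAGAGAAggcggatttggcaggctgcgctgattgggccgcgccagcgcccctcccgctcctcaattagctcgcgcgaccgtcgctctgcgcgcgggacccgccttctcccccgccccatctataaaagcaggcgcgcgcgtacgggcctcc
Irf1: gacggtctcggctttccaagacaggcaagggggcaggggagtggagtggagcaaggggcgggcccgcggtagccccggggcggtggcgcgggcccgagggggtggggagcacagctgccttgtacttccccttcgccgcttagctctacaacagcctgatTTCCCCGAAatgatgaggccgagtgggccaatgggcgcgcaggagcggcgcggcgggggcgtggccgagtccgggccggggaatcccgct
Irf2: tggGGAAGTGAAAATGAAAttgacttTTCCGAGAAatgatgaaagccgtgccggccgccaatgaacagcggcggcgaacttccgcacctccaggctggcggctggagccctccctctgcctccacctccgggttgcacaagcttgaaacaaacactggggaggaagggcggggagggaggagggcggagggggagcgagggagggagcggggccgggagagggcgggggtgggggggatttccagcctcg
Irf7: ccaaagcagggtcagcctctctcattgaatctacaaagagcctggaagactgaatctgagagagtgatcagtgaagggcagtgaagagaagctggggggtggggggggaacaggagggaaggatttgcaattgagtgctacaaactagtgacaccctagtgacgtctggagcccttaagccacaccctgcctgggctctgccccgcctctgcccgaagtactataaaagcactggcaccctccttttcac
Irf8 has 2 GAS matches, TTCTCGGAA and TTCAGAGAA, which begin 171 and 153 bases before the start. Irf1 has 1, TTCCCCGAA, which begins 90 bases before the start. Irf2 has all 3 motifs, and its response element core and composite overlap. A match is a description of letters and shows no binding.

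In cells carrying Dnm3os, Irf8 was 1.54-fold higher, Irf7 was 1.08-fold lower, and the other 6 factors did not pass the threshold. By edgeR, 1 of 8 members was higher and 1 was lower at an adjusted p under 0.05, beside 6.51% higher and 5.75% lower among all 13172 genes tested. The median log2 fold change of the 8 was -0.03, beside 0.00 over all genes tested. With 8 genes, 1 call in each direction is too few to set against those shares.

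**Figure D1:**
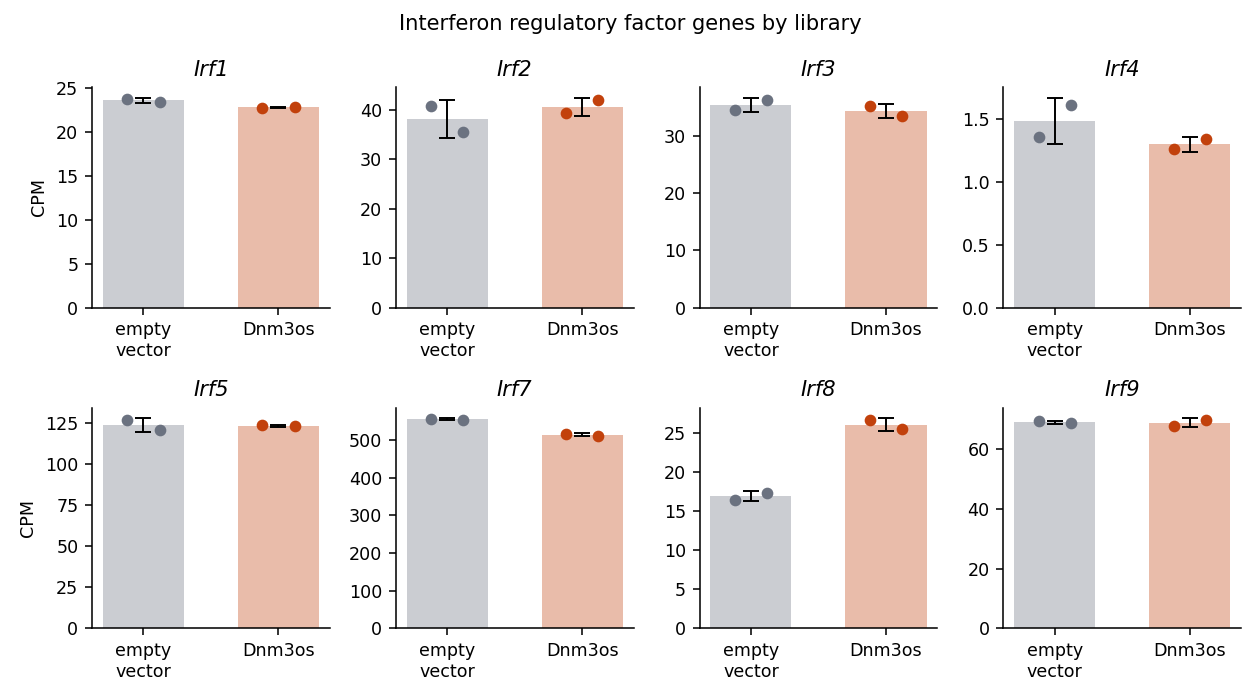
Level of each factor in CPM (vertical axes, each from 0) in the 2 empty vector libraries (grey) and the 2 Dnm3os libraries (orange). Points are libraries, bars are group means and error bars are SDs. The groups of Irf8 (16.9 against 26.0 CPM) and Irf7 (554 against 514 CPM) do not overlap, nor do those of Irf1 and Irf4. The same held for 51.2% of all genes tested, in either direction.

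Irf8, the macrophage lineage factor, was at 16.4 and 17.3 CPM in the empty vector libraries and at 26.6 and 25.4 CPM in the Dnm3os libraries. Both Dnm3os libraries lay above both empty vector libraries, and the gap of the means was larger than the SD within either group. The means were 16.9 ± 0.654 and 26.0 ± 0.829 CPM (SD, n = 2 per group). The log2 fold change was 0.62 ± 0.07 (SE; 95% interval 0.48 to 0.76; adjusted p = 5.01e-07 by edgeR). It kept its call without each of the 4 libraries in turn, at 0.58 to 0.66.

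The 2 deposited Irf8 transcripts, NM_001301811 and NM_008320, differed by 0 to 2 counts in any library. The counts are therefore nearly the same number for both, and the second transcript gave 0.62. They do not tell which of the annotated start sites was used.

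Irf7, the interferon-inducible factor that amplifies type I interferon output, was at 556 and 552 CPM with the empty vector and at 516 and 511 CPM with Dnm3os. Both Dnm3os libraries were lower, by a small margin beside the level. The means were 554 ± 2.73 and 514 ± 3.49 CPM (SD, n = 2 per group), a log2 fold change of -0.11 ± 0.03 (95% interval -0.17 to -0.05; adjusted p = 0.0102 by edgeR). Irf7 no longer passed in edgeR after removal of empty vector library 1 (adjusted p = 0.0604), of Dnm3os library 1 (0.0739) or of Dnm3os library 2 (0.132), with a log2 fold change of -0.12 to -0.10 in each. The 3 Irf7 transcripts gave -0.11 each. Those not kept held 93.2 to 97.5% of the counts of the kept one, so the counts are nearly the same numbers. Exons of Irf7 overlap those of Phrf1 on the other strand by 45 bases, and the strand setting of the counting is not given.

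**Figure D2:**
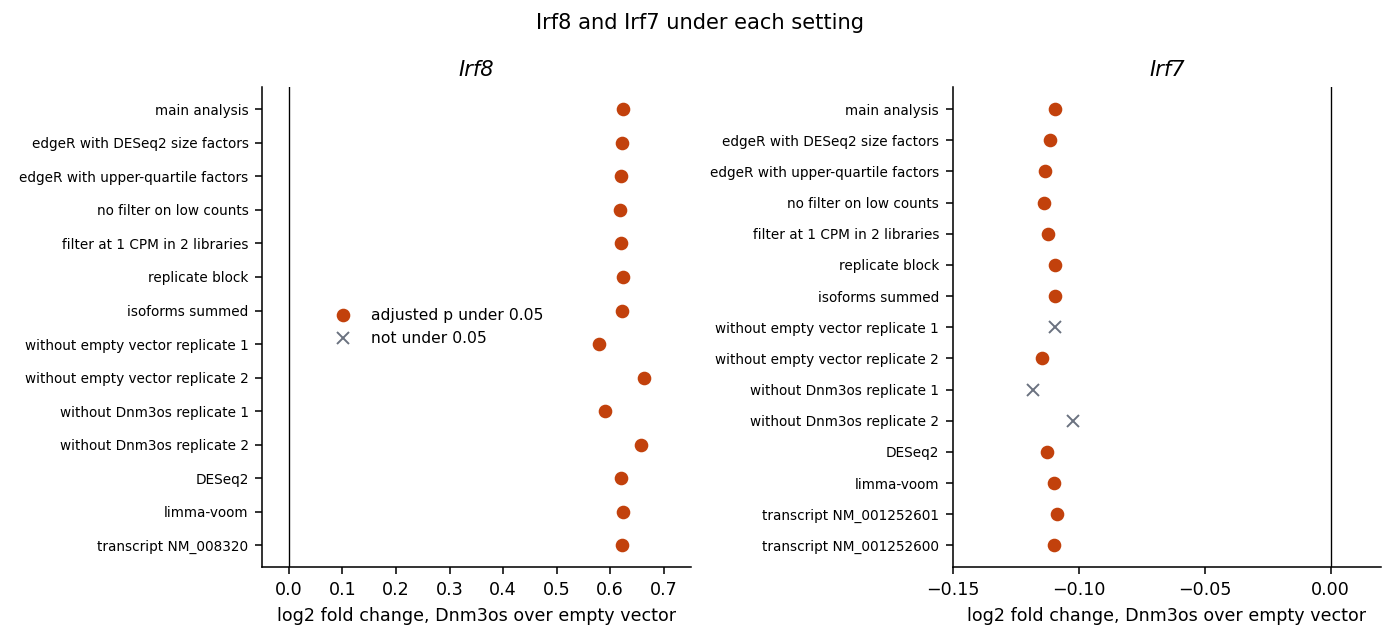
Log2 fold change (horizontal axes, Dnm3os over empty vector) of Irf8 and Irf7 in the main analysis and each alternative (vertical axes). Filled points have an adjusted p under 0.05 and crosses do not; Irf8 stays between 0.58 and 0.66 in all settings, and Irf7 between -0.12 and -0.10 with 3 crosses, all where a library is left out.

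Irf3, the factor activated first in nucleic acid sensing, was at 34.6 and 36.3 CPM with the empty vector and at 35.2 and 33.6 CPM with Dnm3os. The groups overlapped, and the log2 fold change was -0.05 ± 0.06 (95% interval -0.16 to 0.07; adjusted p = 0.719 by edgeR). The transcript kept for Irf3, NR_045611, is a noncoding record. The coding NM_016849, with 99.2 to 99.4% of its counts, gave -0.05 as well. Exons of Irf3 overlap those of Bcl2l12 on the other strand by 88 bases. Irf5, the factor of inflammatory cytokine genes, was at 127 and 121 CPM with the empty vector and at 124 and 123 CPM with Dnm3os. The Dnm3os libraries fell inside the range of the empty vector libraries. The log2 fold change was -0.01 ± 0.03 (95% interval -0.08 to 0.07; adjusted p = 0.954 by edgeR), and it was 0.0246 without empty vector library 1. Exons of Irf5 overlap those of Tnpo3 on the other strand by 251 bases.

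Irf9, the DNA-binding subunit of ISGF3, was at 69.2 and 68.6 CPM with the empty vector and at 67.7 and 69.8 CPM with Dnm3os. The groups overlapped (-0.00 ± 0.04; 95% interval -0.09 to 0.08; adjusted p = 0.976 by edgeR). It was 0.0162 without Dnm3os library 1. Irf9 shares 123 bases of exon with Rnf31 on the same strand, whose reads cannot be told apart there.

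Irf1, the activator, was at 23.8 and 23.4 CPM with the empty vector and at 22.7 and 22.9 CPM with Dnm3os. The groups did not overlap, but the log2 fold change of -0.05 ± 0.06 did not pass (95% interval -0.18 to 0.08; adjusted p = 0.719 by edgeR). Another Irf1 transcript, NM_001159393, held 64.8 to 68.2% of the counts of the first and gave a log2 fold change of -0.0034. Exons of Irf1 overlap those of Gm17334 on the other strand by 100 bases. Irf2, its frequent antagonist, was at 40.8 and 35.5 CPM with the empty vector and at 39.3 and 41.9 CPM with Dnm3os. Here the empty vector libraries differed more from each other than the groups did (0.09 ± 0.06; 95% interval -0.04 to 0.23; adjusted p = 0.459 by edgeR). The sign of Irf2 turned without empty vector library 2, at -0.005, and its log2 fold change was 0.193 without empty vector library 1.

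Irf4, the relative of IRF8 known from lymphocytes and alternatively activated macrophages, was the least abundant member, with 54 and 57 counts and then 37 and 46. These are 1.35 and 1.61 CPM with the empty vector and 1.26 and 1.34 CPM with Dnm3os. The groups did not overlap, but the log2 fold change of -0.18 ± 0.23 has a 95% interval of -0.67 to 0.30 (adjusted p = 0.725 by edgeR), so a change of the size seen in Irf7 was not detectable at this depth. Groups that do not overlap are common: this held for 3 members lower (Irf1, Irf4 and Irf7) and 1 higher (Irf8), and for 25.0% and 26.2% of all genes tested, or 51.2% in either direction.

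**Figure D3:**
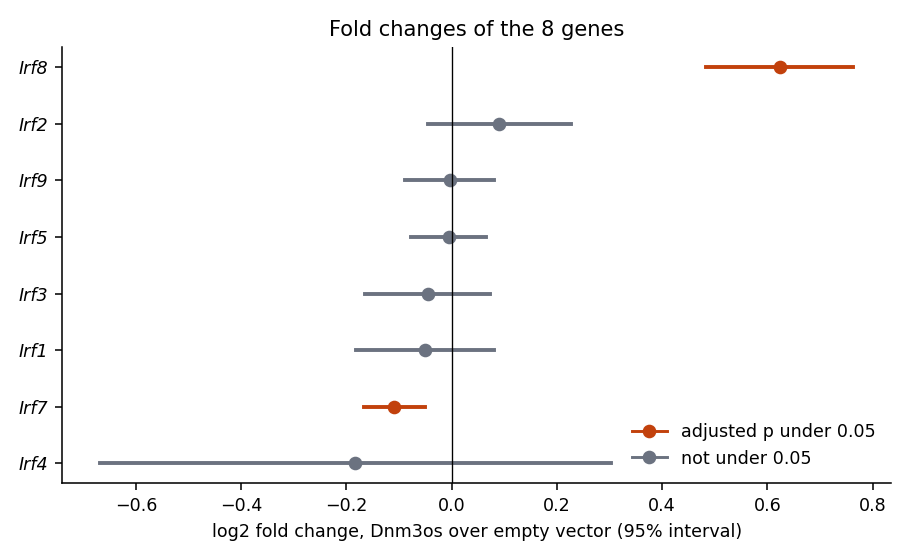
Log2 fold change of the 8 genes, Dnm3os over empty vector (horizontal axis), as points with 95% intervals from the edgeR fit, ordered by value. Irf8 at 0.62 stands apart from the others, Irf7 at -0.11 has a narrow interval below 0, and Irf4 has the widest interval.

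Per transcript length, Irf7 led the family at 289 ± 1.42 CPM per kilobase with the empty vector, above 97.7% of the 12798 tested genes with a length. Irf5 followed at 55.3 ± 1.86, Irf9 at 23.3 ± 0.138, Irf3 at 17.5 ± 0.596, Irf2 at 15.3 ± 1.52, Irf1 at 11.1 ± 0.138, Irf8 at 7.44 ± 0.288 and Irf4 at 0.311 ± 0.0385 CPM per kilobase (SD, n = 2). The lengths are of GRCm38 gene models and the notes name mm9 for the reads, so the order may shift where the models differ. The neighbours Irf3 and Irf2 overlapped in the Dnm3os libraries, and no other neighbours overlapped within either group. Of the summed level of the 8 genes, Irf7 made up 68.7 and 69.2% with the empty vector and 66.8 and 66.6% with Dnm3os.

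With Dnm3os, Irf8 reached 11.5 ± 0.365 CPM per kilobase and Irf1 was at 10.7 ± 0.0446, so these neighbours traded places. That order depends on the transcript: with the counts and the 2847 bases of NM_008320 in place of those of NM_001301811 (2270 bases), Irf8 was at 9.33 and 8.91 CPM per kilobase and stayed below Irf1. As a share of the summed family level, Irf8 was 1.71 and 1.84% with the empty vector and 2.91 and 2.79% with Dnm3os. The ratio of Irf7 to Irf8 per length was 40.1 and 37.7 with the empty vector and 23.0 and 23.8 with Dnm3os. The ratio of Irf8 to its relative Irf4 was 25.5 and 22.6, then 44.4 and 39.8. The ratio of Irf1 to Irf2 was 0.682 and 0.771, then 0.675 and 0.637, with means apart by less than the gap between the empty vector libraries.

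**Figure D4:**
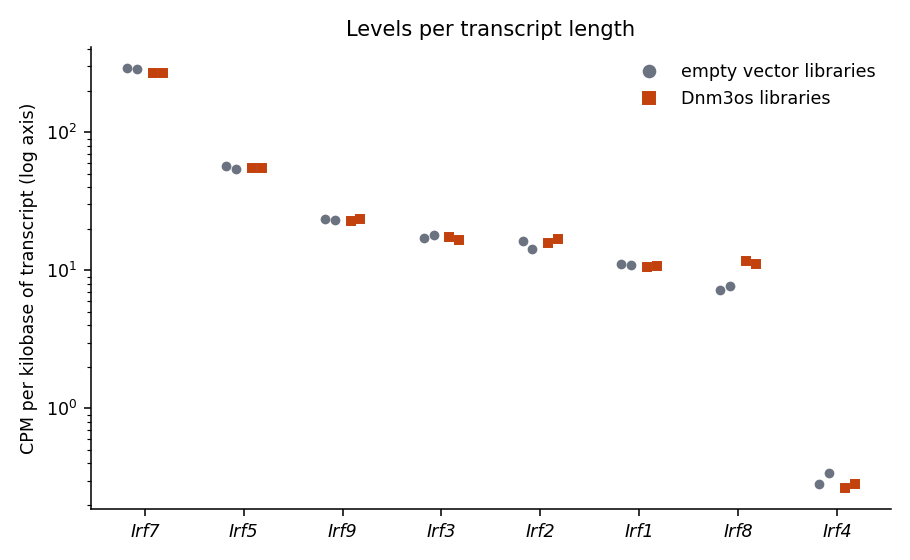
Level per transcript length in CPM per kilobase (vertical log axis) of the 8 genes, ordered by their mean in the empty vector libraries. Circles are empty vector and squares Dnm3os libraries; the order runs from Irf7 at 289 to Irf4 at 0.311, and Irf8 moves past Irf1 in the Dnm3os libraries.

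Genes nearest to Irf8 in pattern over the 4 libraries were sought by Euclidean distance of centred log2 CPM. Predicted, numbered clone and unnamed genes were left out, as were those under a mean of 5 CPM. The nearest 5 were Grap, Acvrl1, Calcrl, Tifab and Nfkbiz (0.03 to 0.07). Grap, an adaptor related to Grb2, was at 13.5 and 14.2 CPM with the empty vector and at 21.5 and 20.4 CPM with Dnm3os. Calcrl, the calcitonin receptor-like receptor, was at 112 and 114 CPM, then 180 and 166 CPM. With 4 libraries in 2 groups, likeness means mostly a rise of the same size.

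Among 103 tested genes of the IRF pathway lists, members left out, 19 were higher, 6 lower and 78 did not pass, which is 18.4% and 5.8% beside the 6.51% and 5.75% over all genes tested. Their median log2 fold change was 0.01. Values with ± below are log2 fold changes with their SE, except those in CPM. The latter are group means with their SD (n = 2 per group). Calls are by edgeR. The lists were drawn up with earlier results of these data known, so these shares are no independent evidence.

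Most DNA-binding partners of IRF proteins did not pass. PU.1, encoded by Spi1 and the main partner of IRF8 in macrophages, was at 296 CPM with the empty vector and 290 CPM with Dnm3os (-0.03 ± 0.03; adjusted p = 0.663 by edgeR). Of 7 tested partners, Mef2c, a myeloid and lymphoid MADS factor (0.25 ± 0.05), and Ikzf1, the lymphoid factor Ikaros (0.19 ± 0.04), rose, 5 did not pass and 0 fell by edgeR. Unadjusted, edgeR had 1 lower at p under 0.05; neither DESeq2 nor limma-voom called any lower (0 and 0). Ikzf1 was lost without Dnm3os library 2 and by DESeq2. Batf3, an AP-1 partner of IRF8 in dendritic cells, had at most 1 count in any library.

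The corepressors that bind IRF2 went different ways. Irf2bp2 rose from 24.9 ± 0.422 to 33.0 ± 1.18 CPM (0.40 ± 0.06; adjusted p = 4.34e-05 by edgeR). Irf2bpl was at 77.3 and 76.7 CPM, then 69.0 and 71.8 CPM (-0.13 ± 0.04; adjusted p = 0.0363 by edgeR), and no longer passed when any 1 of the 4 libraries was removed, nor by DESeq2, limma-voom or summed isoforms. Irf2bp1 did not pass (-0.12 ± 0.06).

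Sensors, adaptors and kinases upstream of IRF3, IRF5 and IRF7 mostly did not pass. Of 26 tested, 3 rose, 23 did not pass and 0 fell by edgeR, with 6 higher and 2 lower at p under 0.05 before adjustment; the lower DESeq2 and limma-voom counts were 0. Ticam2, an adaptor of TLR4, rose from 6.45 ± 0.852 to 10.3 ± 0.780 CPM (0.68 ± 0.11). Ikbke, the inducible kinase of IRF3 and IRF7 (0.22 ± 0.06), was not called by DESeq2, nor with either library of Dnm3os or library 1 of the empty vector removed. Tlr4 (0.16 ± 0.05; adjusted p = 0.0498 by edgeR) lost its call under 8 alternatives, among them the removal of those same libraries, DESeq2 and limma-voom.

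The 11 interferon genes on the list read here were nearly silent. Ifnb1 had 3 and 3 counts with the empty vector and 3 and 8 with Dnm3os. The other 10 on that list had 0 counts in all 4 libraries, so none of the listed genes was tested. Of 14 tested genes of interferon receptor signalling, 2 rose and 12 did not pass. Socs3, a feedback inhibitor of cytokine receptors, was at 20.4 and 16.5 CPM, then 24.2 and 25.8 CPM (0.44 ± 0.09), and Ptpn1, a phosphatase of JAK kinases, had 0.18 ± 0.05. Without Dnm3os library 2 neither was called, and Ptpn1 was also lost without empty vector library 1 and by DESeq2. The count lower was 0 by edgeR, DESeq2 and limma-voom, and 2 by edgeR at an unadjusted p under 0.05, beside 3 higher. With empty vector library 1 removed, edgeR called 1 lower.

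Lists of known targets were read for IRF8, IRF1, IRF3 with IRF7, ISGF3, IRF5 and IRF4. Of 15 tested targets of IRF8, 6 rose, 9 did not pass and 0 fell by edgeR, with a median log2 fold change of 0.20 (1 was lower before adjustment, at p under 0.05, and 0 by DESeq2 or limma-voom). Ctsc, the lysosomal protease cathepsin C, rose from 4.01 and 4.90 to 29.2 and 26.7 CPM (2.65 ± 0.09). Nos2, the inducible nitric oxide synthase, rose from 3.81 and 5.77 to 23.9 and 20.3 CPM (2.21 ± 0.21; adjusted p = 0.00452 by edgeR). Blnk, an adaptor of immune receptors, rose from 7.77 and 7.10 to 19.8 and 21.6 CPM (1.48 ± 0.09), and Cybb, the catalytic subunit of the phagocyte oxidase, from 114 and 122 to 276 and 264 CPM (1.20 ± 0.04).

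The other called IRF8 targets, Klf4 (0.30 ± 0.09) and Acp5 (0.20 ± 0.06), were named after their values were seen. Each was lost without each of the 4 libraries and by DESeq2. Klf4 was also lost with summed isoforms, and Acp5 by limma-voom. Other targets on the list did not pass: Cst3, or cystatin C, had -0.06 ± 0.03 and Pml -0.00 ± 0.04. Values of Cybb, Ctsc and Nos2 in these data were known when the list was made. Whether the rise of Irf8 bears on any of these genes was not tested.

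**Figure D5:**
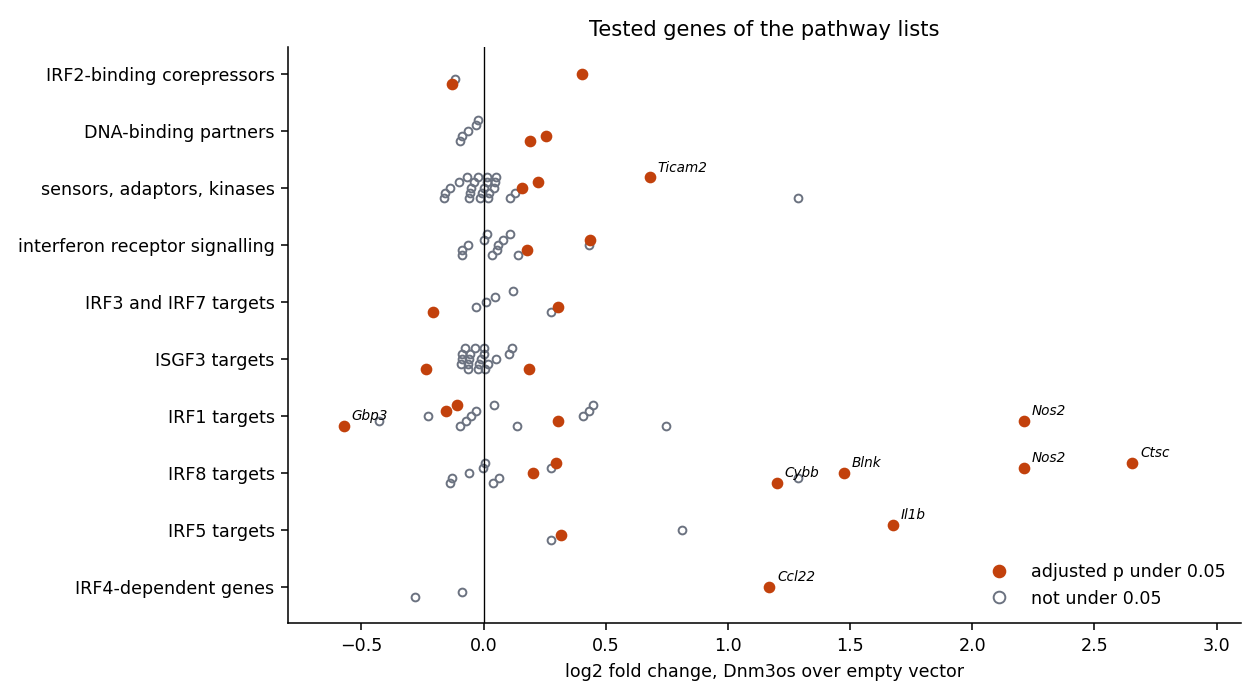
Log2 fold change, Dnm3os over empty vector (horizontal axis), of each tested gene of 10 pathway lists (rows), members left out; a gene on 2 lists appears in both. Filled points have an adjusted p under 0.05, and names mark the called genes with the largest changes; most points lie near 0, and the IRF8 target row holds Ctsc at 2.65, Nos2 at 2.21, Blnk at 1.48 and Cybb at 1.20.

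Targets of IRF1 moved both ways: 2 of the 17 that could be tested rose, 3 fell and 12 did not pass. Nos2, which is also an IRF8 target, and the chemokine Cxcl10 (0.30 ± 0.08) rose, and the guanylate-binding Gbp3 (-0.57 ± 0.06), B2m, the light chain of MHC class I (-0.11 ± 0.03), and the GTPase Irgm1 (-0.15 ± 0.03) fell. Removing Dnm3os library 2 ended the calls of Cxcl10, B2m and Irgm1, and removing Dnm3os library 1 or empty vector library 2 ended those of Cxcl10 and B2m. DESeq2 and summed isoforms also did not call Cxcl10.

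Of 7 tested targets of IRF3 and IRF7, Cxcl10 rose, Ifit1, an interferon-induced RNA-binding protein, fell (-0.21 ± 0.05; lost without Dnm3os library 1 and by DESeq2), and 5 did not pass, Isg15 and Rsad2 among them. Of 23 tested targets of ISGF3, the members Irf7 and Irf9 among them, Oasl1 rose (0.19 ± 0.03), Oasl2 (-0.24 ± 0.03) and Irf7 fell, and 20, Irf9 included, did not pass. The median of the ISGF3 targets was -0.02, and 2 were higher and 6 lower at an unadjusted p under 0.05 by edgeR. Removing empty vector library 2 gave 4 of these genes lower, and removing any other library gave 1.

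Of 4 tested inflammatory targets of IRF5, the cytokine genes Tnf (0.32 ± 0.03) and Il1b (1.67 ± 0.19) rose by edgeR. The count lower was 0 by edgeR, also at an unadjusted p under 0.05, by DESeq2 and by limma-voom. Il1b was at a low level, with 62 and 36 counts with the empty vector and 119 and 146 with Dnm3os. Il12b and Il12a, classical IRF5 targets, had 0 counts in all 4 libraries. Of 9 alternative activation genes known to depend on IRF4, 3 could be tested. Ccl22 had 18 and 20 counts, then 29 and 44 (1.17 ± 0.32), which DESeq2 did not call, nor edgeR once empty vector library 1 or Dnm3os library 2 was removed, and 0 fell by edgeR, at an unadjusted p under 0.05, by DESeq2 or by limma-voom. Retnla and Chil3 had 0 counts, and Arg1 at most 2.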

How the data were processed

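RNA of 2 empty vector and 2 Dnm3os libraries was prepared as poly(A) libraries with a TruSeq kit, per the labels' protocols. The submitters' processing notes name TopHat, Bowtie2, DESeq2 and the build mm9, with no versions or roles; for the counter, annotation and strand setting, the sources used here give nothing. Per the file headers, there is 1 file per library, with raw and normalized counts of 35786 RefSeq transcripts. The deposited raw column holds whole-number read counts. The authors' normalized column is a scaled signal, each raw count multiplied by a constant of its library (0.865 to 1.17), and was not used further.

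RefSeq and GENCODE tables named 35499 and 178 transcripts, and 109 unnamed ones (0.246 to 0.276% of counts) stayed as rows of their own, except the 45S ribosomal RNA. The highest transcript per gene was kept, the shorter accession number where means tied (Irf4). Genes were filtered (filterByExpr), scaled by TMM (0.997 to 1.003) and tested in R 4.3.3 with the quasi-likelihood test of edgeR 4.0.16 (robust glmQLFit, glmQLFTest), two-sided, with Benjamini-Hochberg adjustment over 13172 genes and a threshold of 0.05. SEs were derived by dividing a log2 fold change, without its sign, by the root of its F statistic. Transcript lengths are of matched GENCODE M21 models. Alternatives were DESeq2 1.42.0, limma-voom (limma 3.58.1), other scaling factors, other filters, a replicate block, summed isoforms, other transcripts of each member and each library left out. Code was tested on simulated data.

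The members and lists were chosen with earlier results of these data known. Named were the members and Dnm3os. Up to 4 called genes per list were named by adjusted p, or the most abundant gene of a list with none. The 5 genes nearest in pattern to Irf8 with a mean of at least 5 CPM were also named. Predicted, numbered clone and unnamed genes were left out of that search. Other names are given for their role or as counts of 0. Some items the rule covers are not reported here.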

Additional observations from a re-analysis of the deposited data

How the results depend on the processing

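The rise of Irf8 kept its direction and its call under all 13 alternatives (log2 fold change 0.58 to 0.66; adjusted p from 1.24e-14 to 0.000715). Irf7 stayed lower under all 14, at -0.1181 to -0.1021 with a library left out, where 3 of 4 such settings lost its call, so the members lower ranged from 0 to 1. Some members that did not pass turned sign. With a library left out, Irf2 ranged from -0.00498 to 0.1930, Irf5 from -0.0393 to 0.0246 and Irf9 from -0.0266 to 0.0162. Irf9 was at 0.00122 with its transcript NM_001159418. None of these passed the threshold. Over all genes, DESeq2 called 384 higher and 336 lower, against 858 and 758 by edgeR, and leaving out a library gave 431 to 808 higher and 366 to 786 lower, lowest without Dnm3os library 2 and next lowest without Dnm3os library 1. Of the pathway genes, DESeq2 called 12 higher, and leaving out a library gave 11 to 18 higher and 3 to 6 lower, against 19 and 6. The cause of these differences was not tested. DESeq2 started from all 24530 rows with its own filter, and edgeR from the 13172 left by filterByExpr, so their counts rest on unlike sets of genes. No label says that the replicate numbers mark a shared batch. Deviations of same-numbered libraries correlated at r = -0.20 over 9979 genes, and those of empty vector library 1 with Dnm3os library 2 at 0.20. With 2 libraries per group these are the same value with the sign turned. They do not tell which libraries share a batch, if any. With a replicate block Irf8 was at 0.6237 and Irf7 at -0.1093, both called, and Nos2 lost its call (adjusted p = 0.102 by edgeR). Where 1 library was left in a group, its spread was taken from the other group. Settings that put another transcript of Irf8 or Irf7 in place of the kept one used nearly the same counts. Depth limits Irf4, with 37 to 57 counts per library.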
